A study of Homo sapiens with 8 samples.

Results

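The levels of 34 genes for the synthesis of nucleotides, one-carbon units and polyamines were followed in C4-2B and NCI-H660 prostate cancer cells with altered levels of MYCL, the gene of the transcription factor L-MYC. The genes were taken by name, as a group of common MYC targets. All 34 were found, each once, among the 78691 rows of the gene count table. RNA was sequenced from 8 libraries in 4 groups of 2. C4-2B is a castration-resistant prostate adenocarcinoma line, and its cells carried either an empty vector (control) or a lentiviral vector in which the EF1A promoter drives human MYCL together with EGFP. NCI-H660 is a neuroendocrine prostate cancer line, and its cells carried either a non-targeting shRNA (shCtrl) or shRNA against MYCL (shMYCL). The sources differ on the knockdown vector: the study's design text names an adenovirus, the sample notes speak of a stable knockdown, and its methods describe an adenoviral and a lentiviral construct. The C4-2B cells were transduced pools that had been selected with puromycin or sorted. Only the C4-2B control libraries are called biological replicates, so the p-values measure the spread between these libraries, which may be technical.

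Purine nucleotides are built stepwise on phosphoribosyl pyrophosphate (PRPP), with formyl groups from one-carbon folates, up to IMP, from which GMP and AMP are made. Pyrimidines are built as a ring first and joined to PRPP afterwards, and salvage enzymes recover both kinds of base and nucleoside. Polyamines are made from ornithine by ODC1, and spermidine and spermine synthases add aminopropyl groups derived from S-adenosylmethionine, which links them to the methionine cycle. MYC proteins bind the E-box CACGTG, and many genes of these pathways, among them ODC1 and CAD, are textbook MYC targets in proliferating cells.

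RefSeq promoter windows of GRCh38.p14, from 250 bases before to 50 bases after an annotated start, were present for 32 of the 34 genes, the exceptions being ADSL and IMPDH2. CACGTG, which reads the same on both strands, was found in at least 1 window of 10 of these 32 genes (31.25%), against 8.77% of the 27305 genes of the table. Genes can have several windows: 24% of the 50 windows of the 34 genes and 7.26% of all 35116 windows held the motif. The 10 genes were ATIC, DCK, DHODH, MTHFD1, MTHFD1L, NME1, ODC1, PAICS, PPAT and SRM. The printed sites are those of the genes with the motif whose counts fell most with MYCL in C4-2B cells (SRM, MTHFD1 and ODC1), and the site shared by PPAT and PAICS, which are transcribed in opposite directions from starts 126 bases apart. Each is printed on the strand of its gene, with CACGTG in capitals.
SRM, chr1:11060200-11060229, minus strand: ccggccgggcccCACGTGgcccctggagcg
MTHFD1, chr14:64388326-64388355, plus strand: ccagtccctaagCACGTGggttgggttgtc
ODC1, chr2:10448024-10448053, minus strand: ccgggccccgggCACGTGtgcggcgcgcct
ODC1, chr2:10447990-10448019, minus strand: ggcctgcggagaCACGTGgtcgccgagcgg
PPAT, chr4:56435780-56435809, minus strand: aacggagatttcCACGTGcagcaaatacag
PAICS, chr4:56435772-56435801, plus strand: ctggaaagctgtatttgctgCACGTGgaaa
The SRM motif began 199 bases and the MTHFD1 motif 15 bases upstream of the start, and the 2 ODC1 motifs lay 29 bases upstream and 5 bases downstream of it. The presence of these letters is a description of the sequence and no evidence of binding.

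Library totals ranged from 15177071 to 32344170 counts, so that the scarcest member, DHODH in NCI-H660 cells, still had between 75 and 115 counts per library. Mitochondrial genes took 9.63% to 10.7% of the counts in C4-2B and 3.50% to 3.83% in NCI-H660 libraries. MYCL itself stood at 5.47 and 6.39 TPM (a level scaled to gene length and to the library's total) in C4-2B cells with the empty vector and at 1363 and 1435 with the MYCL vector. In NCI-H660 cells it was at 64.3 and 48.2 TPM with shCtrl and at 6.18 and 7.0 with shMYCL. MYC moved the other way in both lines, from 88.2 and 91.5 to 53.2 and 65.7 TPM in C4-2B and from 11.3 and 14.1 to 24.3 and 19.6 TPM in NCI-H660, and its part in the changes described here was not tested. MYCN was listed at 0 TPM in all C4-2B libraries and at 1.12 to 2.55 in NCI-H660. Of 7 luminal markers, 1 reached at least 1 TPM in each NCI-H660 library, with KLK3 and FOLH1 at 0 TPM, against 7 of 7 in C4-2B libraries. Of the neuroendocrine markers, 7 of 7 reached at least 1 TPM in NCI-H660, against 1 or 2 of 7 in C4-2B libraries.

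All 34 genes reached at least 1 TPM in every library. In C4-2B control cells the most abundant were NME2, a nucleoside diphosphate kinase, at 1096 and 1101 TPM, and ODC1, the rate-limiting enzyme of polyamine synthesis, at 816 and 713 TPM. The lowest there were MTHFD1L (12.4 and 15.2 TPM) and CAD (14.0 and 14.3 TPM), whose ranges overlapped. NME2 was also the highest in the other 3 groups. In NCI-H660 shCtrl cells PAICS (261 and 247 TPM) came next, below NME2 (294 and 301 TPM), and DHODH was lowest at 3.83 and 4.57 TPM. The 5 most abundant genes held 52.4% to 59.1% of the summed TPM of the group in C4-2B and 33.1% to 34.4% in NCI-H660 libraries.

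**Figure D1:**
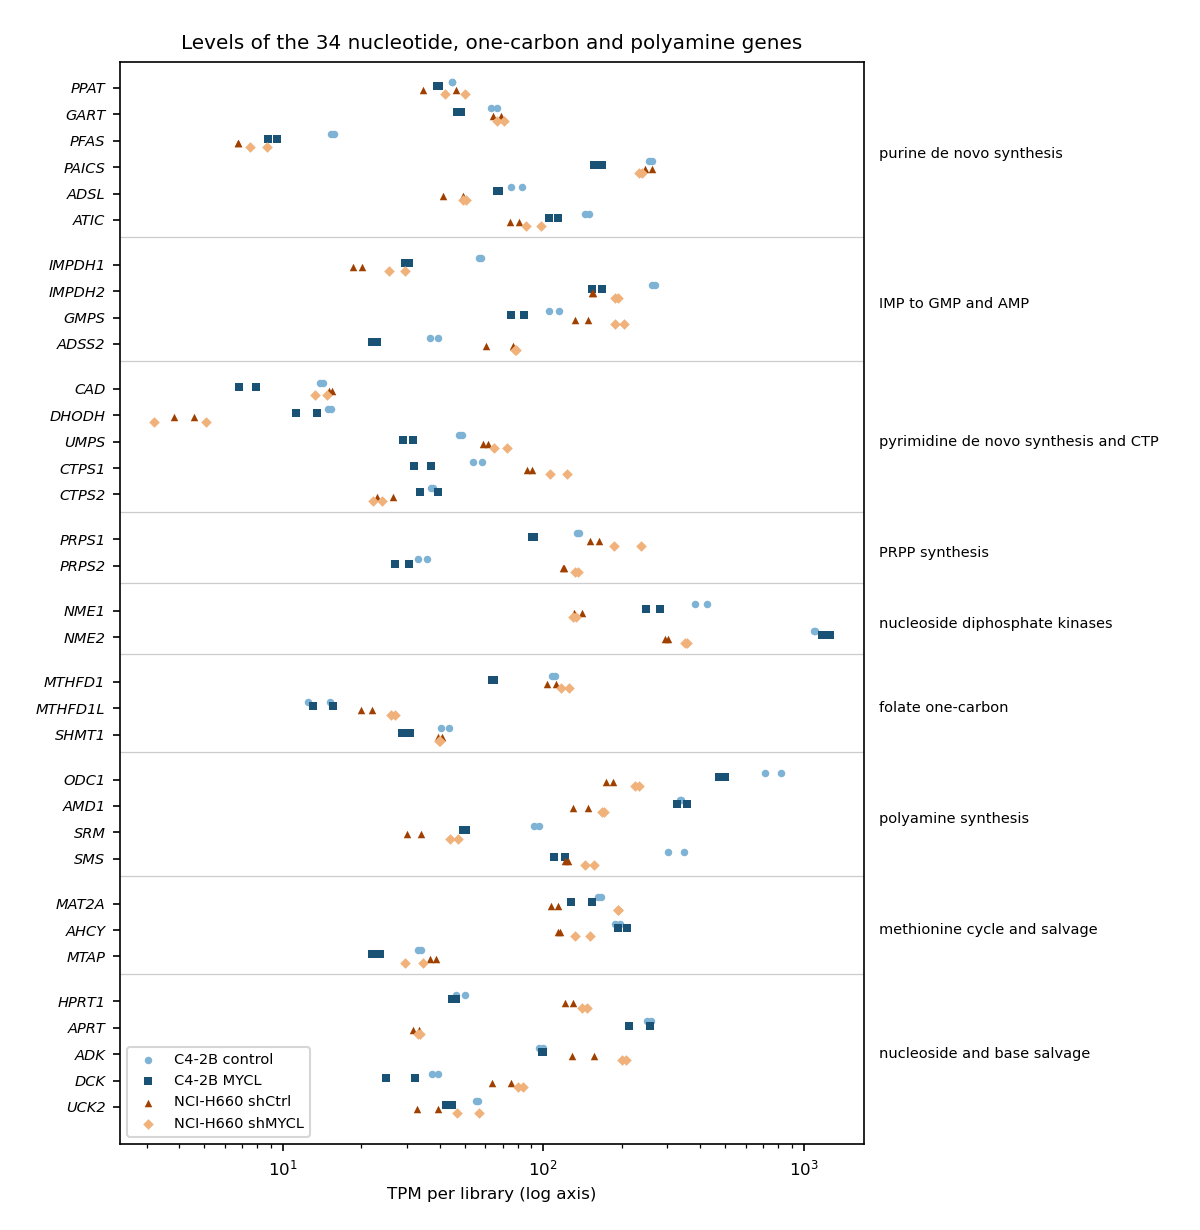
TPM of each of the 34 genes in each of the 8 libraries (x axis, log scale), with 1 row per gene ordered by pathway and 2 symbols per group. The C4-2B MYCL squares lie to the left of the control circles for most purine, pyrimidine and polyamine genes, as for SMS (347 and 301 against 121 and 110 TPM), while NME2 stays at the right end in every group.

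The first question was what added MYCL did to these genes in adenocarcinoma cells. Most of them were lower. Together they took 0.716% and 0.697% of all counts in C4-2B cells with the empty vector and 0.581% and 0.577% with the MYCL vector, so the groups did not overlap. At an adjusted p under 0.05 (edgeR's quasi-likelihood test, adjusted by Benjamini-Hochberg across the 16866 genes tested), 21 of 34 fell, or 61.8%, against 17.4% of all genes tested, and 1 rose (NME2), against 17.6% of all genes. With a log2 fold change of at least 0.5 in size as a further condition, 11 were lower, or 32.4%, against 8.12% of all genes, and 0 were higher, against 11.8%. The second count was also 0 at an unadjusted p and with DESeq2. The median log2 fold change was −0.33, with −0.00 over all genes tested, and it ran from −1.35 for SMS to 0.30 for NME2. Both MYCL libraries lay below both control libraries for 25 of the 34 genes (background 34.7%) and above them for 5 (background 34.5%), in counts scaled by library size.

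The 11 genes past both thresholds were SMS, CAD, IMPDH1, SRM, UMPS, ADSS2, PFAS, MTHFD1, IMPDH2, CTPS1 and ODC1. Of these, ODC1, SRM and SMS make polyamines, CAD, UMPS and CTPS1 make pyrimidines, IMPDH1, IMPDH2, ADSS2 and PFAS make purines, and MTHFD1 handles one-carbon folates. On TPM values the median of all genes moved to −0.14 on the log2 scale, and the median of the 34 genes was −0.31 relative to it (−0.42 without a filter on low values), against −0.33 on counts. Of the 21 fallen genes, GART, ATIC, GMPS, DHODH, CTPS1, NME1, SHMT1, ODC1 and DCK did not pass in every analysis of TPM values.

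The reverse question was what happened when MYCL was reduced in neuroendocrine cells. The genes tended upwards, and by less. Their summed share of counts was 0.363% and 0.360% with shCtrl and 0.417% and 0.427% with shMYCL, again without overlap. Of 34 genes, 11 rose (32.4%, background 12% of 16980 genes) and 0 fell (background 12.7%, or 2163 genes) at an adjusted p under 0.05 from the same edgeR test. At an unadjusted p under 0.05 in edgeR 1 was lower (CTPS2), and DESeq2 gave 13 risen and 0 fallen genes. At a log2 fold change of at least 0.5, 4 genes were higher (11.8%, background 7.18%) and 0 were lower (background 8.99%): MAT2A, UCK2, ADK and SRM. The median log2 fold change was 0.23, with −0.00 over all genes. Both shMYCL libraries lay above both shCtrl libraries for 24 genes (background 31.1%) and below them for 4 (background 32.0%).

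The increases in NCI-H660 cells depended on single libraries and on the scale more than the decreases in C4-2B. Without shMYCL replicate 1 the number of risen genes was 5 and without shMYCL replicate 2 it was 4, with MAT2A, ADK and UCK2 past the threshold whichever library was left out. In limma's test on log2(TPM + 1), 1 gene (MAT2A) passed. In C4-2B cells 16 of the 21 fallen genes passed whichever library was left out, and 12 passed in all 3 analyses of TPM values.

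**Figure D2:**
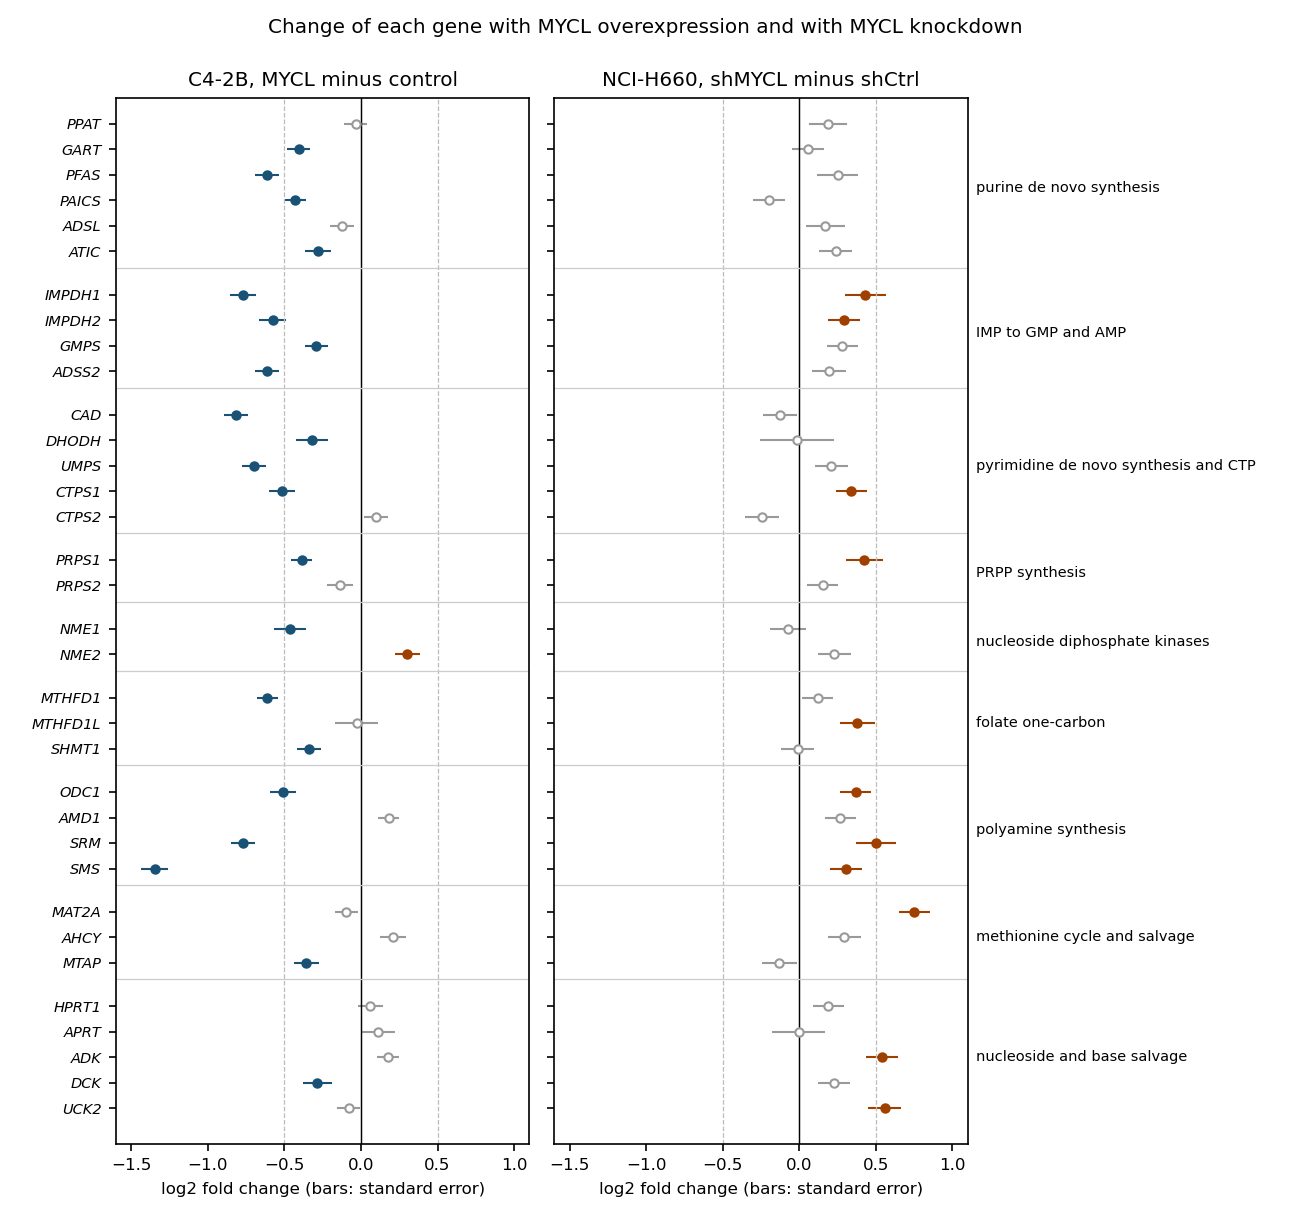
Log2 fold change of each gene with MYCL overexpression in C4-2B (left) and with MYCL knockdown in NCI-H660 (right), with bars of 1 standard error (SE, 2 libraries against 2). Blue filled points fell, brown filled points rose and open grey points did not pass an adjusted p of 0.05; dashed lines mark 0.5 and −0.5. In the left panel 21 points are blue and 1 is brown, and in the right panel 11 are brown and 0 are blue.

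Of the 34 genes, 7 both fell with MYCL in C4-2B and rose with its knockdown in NCI-H660: IMPDH1, IMPDH2, CTPS1, PRPS1, ODC1, SRM and SMS. This is 20.6%, beside 3.87% of the 14212 genes tested in both lines. The rises of these 7 in NCI-H660 are all among those that depended on single libraries and on the scale. None of the 7 passed there on TPM values. With each library left out in turn, their log2 fold changes in NCI-H660 ran from 0.25 (SMS) to 0.57 (SRM). A further 14 fell in C4-2B without passing the test in NCI-H660, 4 rose in NCI-H660 without passing in C4-2B (MTHFD1L, MAT2A, ADK and UCK2), and 8 passed in neither.

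Polyamine synthesis held the largest change. SMS, spermine synthase, had 347 and 301 TPM in C4-2B control and 121 and 110 TPM in MYCL libraries. Its log2 fold change was −1.35 (standard error, SE, 0.09, adjusted p = 2.82e-05, edgeR's quasi-likelihood test), which is 60.7% lower, and no control library came near the MYCL libraries. In NCI-H660 it had 121 and 125 TPM with shCtrl and 145 and 157 TPM with shMYCL, a log2 fold change of 0.31 (SE 0.11, adjusted p = 0.0437). SRM, spermidine synthase, was at 92.3 and 96.3 TPM in control and at 50.7 and 49.4 TPM in MYCL libraries. Its log2 fold change was −0.77 (SE 0.08, adjusted p = 1.70e-04) in C4-2B. With knockdown in NCI-H660, SRM went from 34.1 and 29.9 to 43.9 and 47.3 TPM, with a log2 fold change of 0.50 (SE 0.13, adjusted p = 0.0101). On counts, both synthases thus fell in one line and rose in the other. Neither rise in NCI-H660 passed on TPM values. ODC1, the first enzyme of the pathway, went from 816 and 713 to 497 and 475 TPM in C4-2B (log2 fold change −0.51, SE 0.08, adjusted p = 0.00194) and from 185 and 174 to 226 and 233 TPM in NCI-H660 (0.37, SE 0.10, adjusted p = 0.0143). AMD1, which makes the decarboxylated S-adenosylmethionine for both synthases, was the exception of the 4 genes. It had 336 and 339 TPM in control and 357 and 326 TPM in MYCL cells, and its log2 fold changes of 0.18 (adjusted p = 0.0705) and 0.27 (adjusted p = 0.064) did not pass in either line.

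Purine synthesis up to IMP was lower in C4-2B without a strong change of its first enzyme. Of its 6 genes 4 fell on counts, and their log2 fold changes were −0.61 for PFAS, −0.43 for PAICS, −0.41 for GART and −0.28 for ATIC. GART and ATIC did not pass in every analysis of TPM values. With each library left out in turn, ATIC ran from −0.40 to −0.16. PFAS, which adds an amide nitrogen, went from 15.3 and 15.7 to 9.53 and 8.81 TPM (SE 0.08, adjusted p = 4.78e-04). PPAT, which catalyses the committed step, had 44.7 and 44.6 TPM in control and 39.2 and 39.7 TPM in MYCL libraries, and on counts its log2 fold change was −0.03 (SE 0.07, adjusted p = 0.754). PAICS, whose promoter shares its CACGTG with that of PPAT, went from 261 and 254 to 168 and 157 TPM (adjusted p = 0.00157). ADSL, the lyase that acts in both the IMP and the AMP branches, had −0.12 and did not pass. In NCI-H660 none of the 6 passed, with log2 fold changes between −0.20 for PAICS and 0.25 for PFAS (1 was higher at an unadjusted p under 0.05, and 0 passed with DESeq2).

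In the branch from IMP onwards 4 of 4 genes fell in C4-2B on counts, though GMPS did not pass in every analysis of TPM values. IMPDH1 and IMPDH2, the isoenzymes of the rate-limiting step to GMP, had log2 fold changes of −0.77 (SE 0.08, adjusted p = 2.52e-04) and −0.58 (SE 0.09, adjusted p = 0.00125). IMPDH1 went from 56.9 and 57.6 to 29.4 and 30.7 TPM, and IMPDH2 from 269 and 262 to 154 and 168 TPM, each without overlap. ADSS2, which starts the branch to AMP, went from 36.7 and 39.3 to 22.9 and 22.0 TPM (log2 fold change −0.61, SE 0.08, adjusted p = 5.36e-04). GMPS, the last enzyme to GMP, had −0.29 (adjusted p = 0.0166). With each library left out in turn, GMPS ran from −0.35 to −0.24. With knockdown in NCI-H660, IMPDH1 rose from 18.7 and 20.2 to 29.4 and 25.5 TPM (log2 fold change 0.43, SE 0.14, adjusted p = 0.0284), and IMPDH2 from 156 and 154 to 189 and 194 TPM (0.29, SE 0.10, adjusted p = 0.0467). There, GMPS and ADSS2 had 0.28 and 0.20 and did not pass. In GENCODE 44, 32.79% of the exon bases of IMPDH2 are shared with another gene on the same strand. How far this affects its counts was not examined.

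In pyrimidine synthesis, CAD, which carries the activities that start the pathway, had the second largest decrease. Its TPM were 14.0 and 14.3 in control and 7.86 and 6.80 in MYCL cells, with a log2 fold change of −0.82 (SE 0.08, adjusted p = 1.52e-04). UMPS, which completes UMP, went from 47.5 and 48.9 to 29.1 and 31.5 TPM (−0.70, SE 0.08, adjusted p = 2.83e-04). DHODH, the mitochondrial step between them, changed by −0.32 (SE 0.11, adjusted p = 0.0433). CTPS1 makes CTP from UTP, as does its isoenzyme CTPS2. CTPS1 went from 58.4 and 53.9 to 37.0 and 31.9 TPM in C4-2B (−0.52, SE 0.08, adjusted p = 0.00188), and CTPS2 from 37.2 and 37.7 to 39.6 and 33.6 TPM (0.10, adjusted p = 0.358). In NCI-H660 CTPS1 alone of the 5 genes passed, from 90.8 and 86.5 to 106 and 123 TPM (0.34, SE 0.10, adjusted p = 0.0249). CAD (−0.13) and UMPS (0.21) did not pass there.

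PRPP, the ribose donor of both pathways, is made by PRPS1 and PRPS2. PRPS1 fell in C4-2B, from 138 and 134 to 92.5 and 90.2 TPM (log2 fold change −0.39, adjusted p = 0.00292), and rose in NCI-H660, from 152 and 163 to 187 and 239 TPM (0.43, adjusted p = 0.0159). PRPS2 had −0.14 and 0.16 and passed in neither line. NME1 and NME2, adjacent genes for the kinases that turn nucleoside diphosphates into triphosphates, went opposite ways in C4-2B. NME1 went from 424 and 382 to 249 and 281 TPM (−0.46, SE 0.10, adjusted p = 0.00792). NME2 was the 1 gene of 34 that rose, from 1096 and 1101 to 1181 and 1265 TPM (0.30, SE 0.08, adjusted p = 0.0202). NME2 did not pass when either control library was left out, or on TPM values. The readthrough gene NME1-NME2 shares 18.68% of the exon bases of NME1 and 24.16% of those of NME2, and its own counts equalled 4.47% to 9.15% of those of NME1.

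Because pairs of isoenzymes moved unequally, their shares were computed per library from TPM, as a description without a test. CTPS1 held 60.0% of the summed TPM of CTPS1 and CTPS2 in C4-2B control and 48.5% in MYCL cells, and 78.2% and 83.2% in shCtrl and shMYCL cells. NME1 held 26.8% and 17.8% of its pair in C4-2B control and MYCL cells, and 31.4% and 27.1% in the NCI-H660 groups. The share of PRPS1 was 79.8% and 76.1% in C4-2B and 56.8% and 61.2% in NCI-H660. IMPDH1 kept the smallest share, at 17.7% and 15.8% in C4-2B and 11.1% and 12.6% in NCI-H660. The pooled SD between replicate libraries was at most 2.80 percentage points, and the library values of each pair did not overlap between treated and control groups. In counts in place of TPM, the IMPDH1 shares of the NCI-H660 groups did overlap. The gene length implied by counts and TPM differed up to 1.82-fold between libraries for CTPS2, and up to 1.11-fold within NCI-H660 and 1.03-fold within C4-2B.

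**Figure D3:**
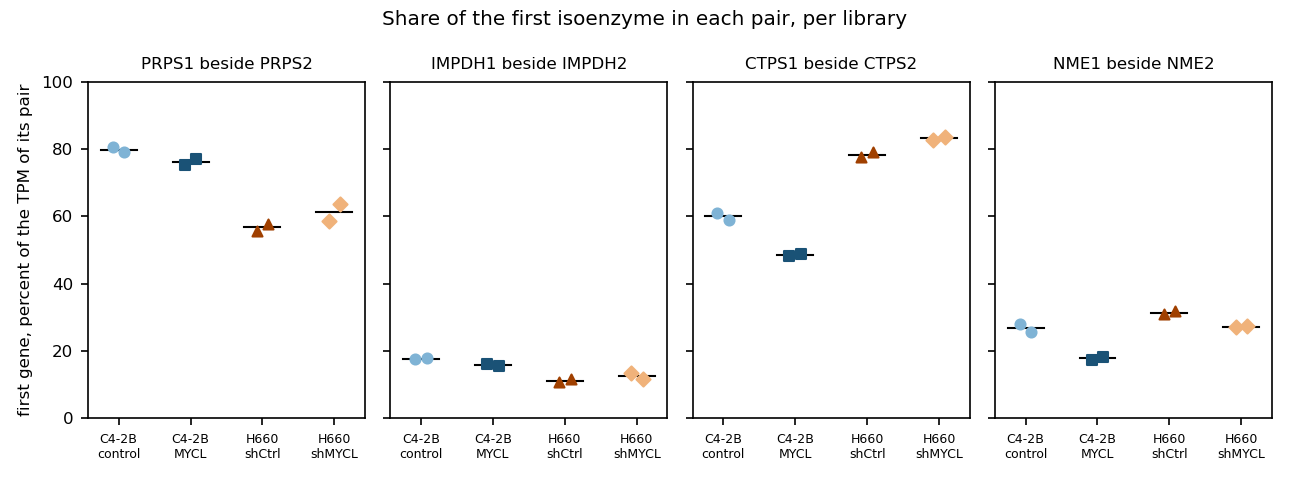
Share of PRPS1, IMPDH1, CTPS1 and NME1 in the summed TPM of each isoenzyme pair (y axis, percent), with 2 symbols per group for the libraries and a black line for their mean. CTPS1 moves from 60.0% to 48.5% in C4-2B and from 78.2% to 83.2% in NCI-H660, while NME1 is lower in the treated group of both lines.

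Among the folate genes, the cytosolic enzymes fell in C4-2B on counts and the mitochondrial one did not pass. MTHFD1, which interconverts one-carbon folates in the cytosol, went from 108 and 111 to 64.8 and 63.4 TPM (log2 fold change −0.61, SE 0.07, adjusted p = 2.87e-04). SHMT1, which loads one-carbon units from serine, had −0.34 (adjusted p = 0.00929). MTHFD1L, which releases formate in mitochondria, had 12.4 and 15.2 TPM in control and 13.1 and 15.6 TPM in MYCL cells (−0.03, adjusted p = 0.899). In NCI-H660 MTHFD1L rose from 19.9 and 22.0 to 27 and 26 TPM (0.38, SE 0.12, adjusted p = 0.0252), and MTHFD1 (0.12) and SHMT1 (−0.01) did not pass.

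The methionine cycle held the largest increase with knockdown. MAT2A, which makes S-adenosylmethionine, had 114 and 107 TPM with shCtrl and 194 and 194 TPM with shMYCL, a log2 fold change of 0.75 (SE 0.10, adjusted p = 8.19e-05). In C4-2B it went from 167 and 163 to 154 and 128 TPM (−0.10, adjusted p = 0.362). GGCX, on the opposite strand, overlaps 12.53% of its exon bases, and whether counting used strand is not given in the sources used here. AHCY, which clears S-adenosylhomocysteine, had 0.21 in C4-2B and 0.29 in NCI-H660 and passed in neither line. MTAP, which recycles the methylthioadenosine left by polyamine synthesis, fell in C4-2B from 34.0 and 32.9 to 23.6 and 22.0 TPM (−0.36, adjusted p = 0.00862) and had −0.13 in NCI-H660.

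Salvage genes changed little in C4-2B on counts. Of the 5 only DCK, the deoxycytidine kinase, fell (−0.29, adjusted p = 0.0457), and HPRT1, APRT, ADK and UCK2 had log2 fold changes between −0.08 and 0.18. In NCI-H660 ADK and UCK2 were among the 4 largest increases. ADK, which phosphorylates adenosine, went from 156 and 129 to 200 and 208 TPM (0.54, SE 0.11, adjusted p = 0.00157). UCK2, which phosphorylates uridine and cytidine, went from 32.8 and 39.4 to 46.7 and 56.7 TPM (0.56, SE 0.11, adjusted p = 0.00161). HPRT1 (0.19) and APRT (−0.00), the base salvage enzymes, did not pass there.

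The genes with CACGTG in a promoter window were also set beside those without it. Of the 10 genes with the motif, 8 fell in C4-2B, with a median log2 fold change of −0.37, and of the 22 without it 12 fell, with a median of −0.31. SMS, which fell most, had no CACGTG in its windows. In NCI-H660, 3 of the 10 and 7 of the 22 rose, with medians of 0.21 and 0.24. These counts are descriptions, and no test of the difference was made.

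Whether the effect of MYCL differed between the lines was tested as an interaction over all 8 libraries, as the log2 difference of MYCL against control in C4-2B minus that of shCtrl against shMYCL in NCI-H660. At an adjusted p under 0.05 (edgeR's quasi-likelihood test), 8 of the 34 genes were lower (23.5%, background 9.63% of 19605 genes) and 6 were higher (17.6%, background 10.6%). The lower ones were SMS (−1.04, SE 0.14), CAD (−0.95, SE 0.13), PAICS, NME1, MTHFD1, UMPS, MTAP and ADSS2. For these the level with high MYCL, relative to low MYCL, was lower in C4-2B than in NCI-H660. The higher ones were ADK (0.72, SE 0.12), MAT2A (0.66, SE 0.12), NME2, AHCY, UCK2 and AMD1. For these it was higher in C4-2B, as for ADK, with 0.18 in C4-2B and −0.54 in NCI-H660. With a size of at least 0.5, 4 were lower (11.8%, background 8.33%) and 4 higher (11.8%, background 9.59%), both close to the background. PAICS, CAD, MTHFD1 and SMS among the lower, and MAT2A and ADK among the higher, passed whichever library was left out. With a filter on low values none of the 6 higher genes passed on log2(TPM + 1), a scale on which the median over all genes was −0.11, and without it 1 did (NME2).

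The control cells of the lines themselves differed in these genes. NCI-H660 shCtrl libraries had 0.363% and 0.360% of their counts on them, against 0.716% and 0.697% in C4-2B control libraries. In edgeR's quasi-likelihood test over all 8 libraries 27 of the 34 were lower in NCI-H660 (79.4%, background 37.3%) and 4 were higher (11.8%, background 40.5%). With a size of at least 0.5 these were 20 (background 33.3%) and 2 (background 36.5%). Both NCI-H660 libraries lay below both C4-2B libraries for 27 genes (background 43.5%) and above them for 6 (background 45.5%). The median log2 difference was −0.70, with 0.03 over all genes. The largest differences were those of APRT (251 and 260 against 31.8 and 33.3 TPM, log2 difference on counts −3.47), ODC1 (816 and 713 against 185 and 174 TPM, −2.70), NME2 (−2.49), DHODH (−2.30), NME1 (−2.17), SRM (−2.17) and IMPDH1 (−2.10). PRPS2 (33.0 and 35.9 against 120 and 119 TPM, 1.16) and HPRT1 (0.78) were the ones higher in NCI-H660 by at least 0.5. The comparison depends on scaling: on log2(TPM + 1) the median of all genes was 0.525 and that of the 34 genes −0.36, which puts them at −0.89 relative to all genes, against −0.74 on counts. Without the filter on low values the median of all genes was 0.04 and the 34 genes stood at −0.41 relative to it. In limma's test on TPM values, with or without the filter, 17 of the 34 genes were lower and 9 higher at an adjusted p under 0.05. GART, GMPS, CAD, UMPS, PRPS1 and MTAP were lower in NCI-H660 on counts and had estimates above zero on TPM. Of these, GMPS and UMPS passed there as higher. PPAT, PAICS, MTHFD1 and SHMT1 stayed below zero on TPM without passing in every analysis. Line, vector and culture cannot be told apart here, and this comparison shares its control libraries with the MYCL comparisons.

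**Figure D4:**
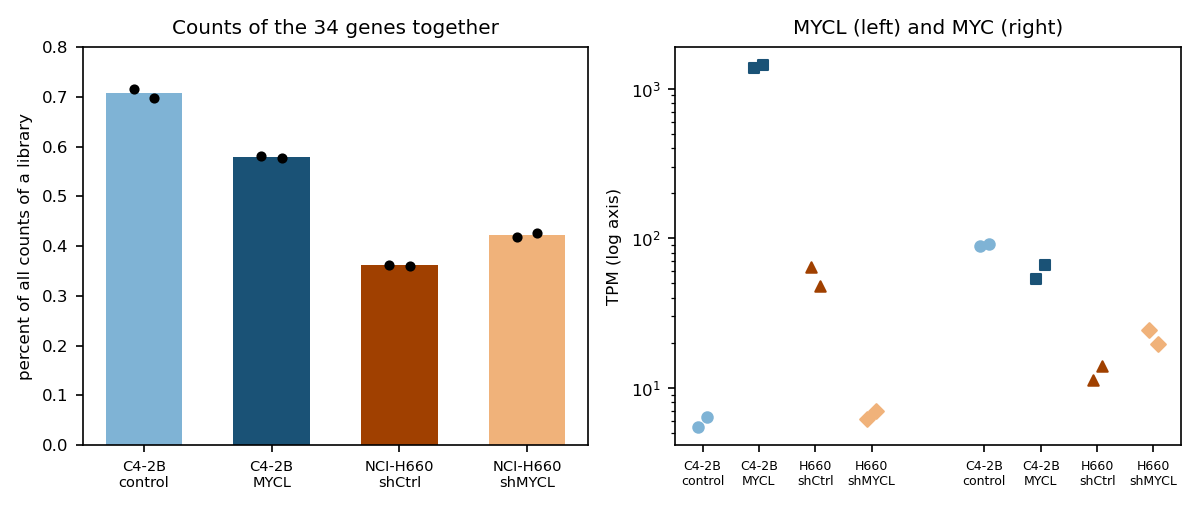
Left, percent of all counts of a library taken by the 34 genes together, with bars for the group means and points for the 2 libraries. Right, TPM of MYCL and MYC per library on a log axis. The summed share falls from 0.716% and 0.697% to 0.581% and 0.577% in C4-2B as MYCL rises and MYC falls, and rises from 0.363% and 0.360% to 0.417% and 0.427% in NCI-H660 as MYCL falls and MYC rises.

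A further 74 genes of the same pathways were taken as 5 lists, and 70 of them could be tested in C4-2B and 72 in NCI-H660. In C4-2B there were 19 risen (background 17.6%), 16 fallen (background 17.4%) and a median log2 fold change of 0.01, and in NCI-H660 9 rose (background 12%) and 14 fell (background 12.7%), with a median of −0.02. As shares these are 27.1% and 22.9% in C4-2B and 12.5% and 19.4% in NCI-H660. Of the list of deoxynucleotide enzymes, 6 of 10 fell and 0 rose in C4-2B (median −0.35, with 1 higher at an unadjusted p in edgeR and 1 risen with DESeq2), and 3 rose and 1 fell in NCI-H660 (median 0.15, with 0 fallen in DESeq2). RRM2, the regulated subunit of ribonucleotide reductase, went from 126 and 122 to 74.3 and 60.3 TPM in C4-2B (log2 fold change −0.75) and from 183 and 199 to 291 and 279 TPM in NCI-H660 (0.59). TK1, the thymidine kinase of dividing cells, had −0.35 and 0.54. In the folate and serine list of 18 genes, 5 rose and 5 fell in C4-2B: the rises were in serine synthesis and mitochondrial folate enzymes (PHGDH 0.44, PSAT1 0.52, SHMT2 0.42, MTHFD2 0.39, ALDH1L2 0.61), and the decreases included TYMS (−0.76) and SLC19A1 (−0.68). Of the same list, 2 rose (11.1%) and 3 fell (16.7%) in NCI-H660, with MTHFD2L at 0.93 and PSPH, the last enzyme of serine synthesis, at −0.94.

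Among the 25 nucleotide kinase and salvage genes, 8 rose and 1 fell in C4-2B, and 4 rose and 4 fell in NCI-H660. Of those tested these are 34.8% and 4.35% in C4-2B (backgrounds 17.6% and 17.4%). In NCI-H660 they are 16.7% and 16.7% (backgrounds 12% and 12.7%). With DESeq2 the counts were 5 and 1, and 3 and 2. UPP1, a uridine phosphorylase, had the largest rise in C4-2B from a low level (0.191 and 0.409 to 1.11 and 2.42 TPM, log2 fold change 2.70), followed by ADSS1, the paralogue of ADSS2, from 4.52 and 4.19 to 10.4 and 12.5 TPM (1.49), and GMPR, a GMP reductase, at 0.76. ADSS1 and ADSS2 thus went opposite ways, as NME1 and NME2 did. PNP, which cleaves purine nucleosides, fell by 0.62 on the log2 scale in C4-2B and rose by 0.62 in NCI-H660. AK4, a mitochondrial adenylate kinase, had the largest decrease of these lists in NCI-H660, with a log2 fold change of −1.89 on counts but −1.23 between the mean TPM (51.2 and 55.9 to 23.2 and 22.6). AMPD3, an AMP deaminase, had −0.88, and UPP1 rose there too (0.82). In the list of 15 genes for polyamine control and breakdown, 4 rose and 3 fell in C4-2B, or 26.7% and 20% beside the same backgrounds of 17.6% and 17.4%. SMOX (1.13) and SAT1 (0.57), which break polyamines down, were among the risen, and ADI1 of the methionine salvage pathway (219 and 209 to 91.8 and 93.7 TPM, −0.99) and EIF5A, the protein modified with spermidine (−0.64), among the fallen. In NCI-H660, 0 of these 15 rose (background 12%), also 0 at an unadjusted p and with DESeq2. There 2 fell, ARG2 (−1.16) and DHPS (−0.35), against 1 with DESeq2. At 13.3% this is close to the background of 12.7%. Of the 5 methionine and methylation genes tested, 2 rose (40%) and 1 fell (20%) in C4-2B and 4 fell (80%) in NCI-H660, among them the MAT2A partner MAT2B (−0.35). DESeq2 gave 1 fallen gene there.

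**Figure D5:**
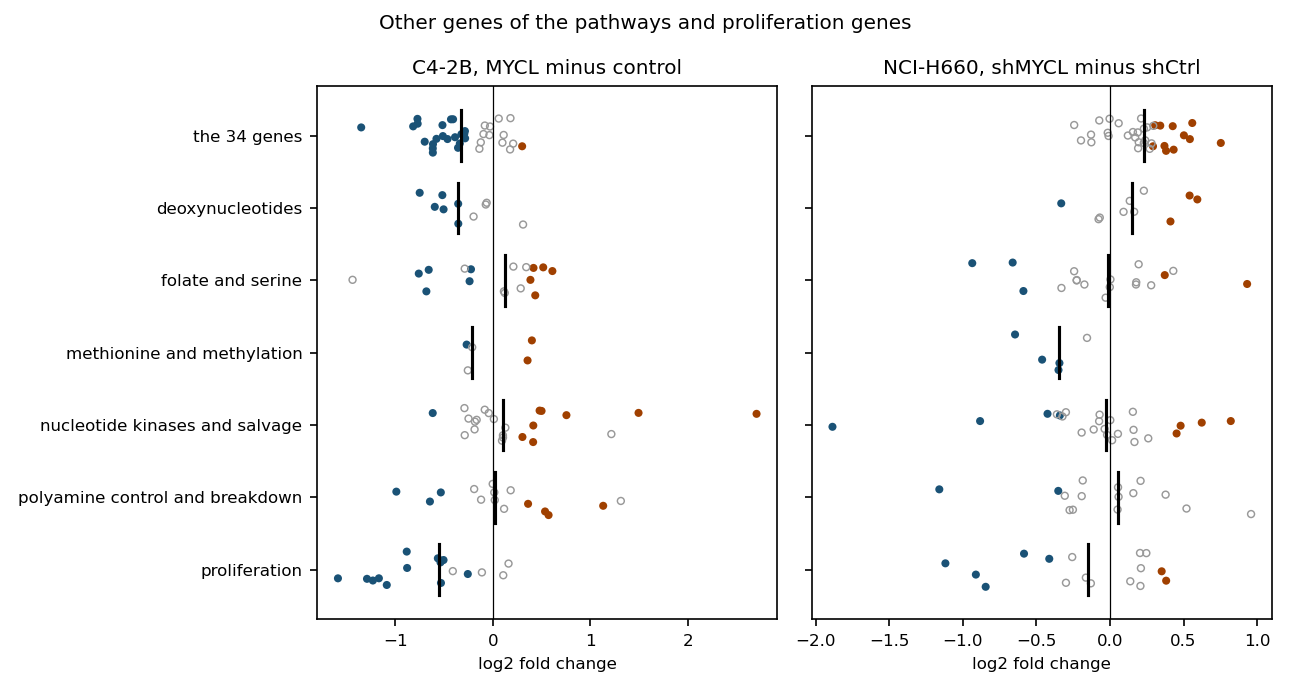
Log2 fold change of every tested gene of the 34 and of 6 further lists (rows), in C4-2B with MYCL (left) and in NCI-H660 with MYCL knockdown (right). Filled points passed an adjusted p of 0.05 (blue lower, brown higher), open points did not, black bars are medians and vertical scatter is arbitrary. The 34 genes, deoxynucleotide and proliferation genes have medians of −0.33, −0.35 and −0.55 in C4-2B.

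Genes of proliferation were mostly lower in C4-2B, as the 34 genes were. In NCI-H660 they were split. PCNA and MCM2 to MCM7 had log2 fold changes above zero, from 0.14 (MCM2) to 0.38 (MCM3), as most of the 34 genes did. The other 9 were below zero. Of 16 such genes 12 fell in C4-2B (75%, background 17.4%), with MCM5 at −1.59 and MCM4 at −1.29. The median log2 fold change was −0.55, and their summed level went from 1553 and 1523 to 932 and 823 TPM. In NCI-H660, 2 rose, MCM3 and MCM5, and at 12.5% this is close to the background of 12%. There 5 fell (31.2%, background 12.7%), including CCNB1 (−1.12) and PLK1 (−0.91). The median was −0.15, and the summed level was 4043 and 3795 TPM with shCtrl and 3848 and 3806 TPM with shMYCL. The summed luminal markers went from 2274 and 2280 to 1625 and 1488 TPM in C4-2B, and the summed neuroendocrine markers from 1256 and 1098 to 841 and 923 TPM in NCI-H660. The part of proliferation or of lineage markers in the changes of the 34 genes was not tested. In RNA of whole cultures, fewer cells with a transcript and less transcript per cell cannot be told apart.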

How the data were processed

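Gene-level counts and TPM of 8 poly(A)-selected, paired-end libraries were used. The authors deposited estimated counts, not normalized across libraries. Fractional values made up 34.41% of the non-zero entries. The methods give the authors' TPM values as counts divided by Ensembl gene lengths and scaled to a common sum. They do not follow from the deposited counts with 1 length per gene: the length implied by counts and TPM differed over 1.5-fold between libraries for 5.03% of 10448 genes with at least 50 counts in every library, and for 2 members (MTHFD1L and CTPS2), and for 0 members within either line. The build is hg38 per the labels. Aligner and counter are not given in the sources used here.

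Counts were rounded and tested with edgeR 4.0.16 in R 4.3.3 (TMM, filterByExpr, quasi-likelihood test, Benjamini-Hochberg adjustment over all genes tested). Each line was fitted alone, and the interaction and the lines were fitted over all 8 libraries. A gene rose or fell at an adjusted p under 0.05. Standard errors came from the fold change and the F statistic. Replicates varied with a biological coefficient of 0.0829 (C4-2B) and 0.0965 (NCI-H660). With 2 against 2 libraries an exact permutation test cannot go below 0.33. Levels are given as TPM and fold changes on counts. Positions and overlaps are those of GENCODE 44 and promoter windows those of RefSeq.

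The members and lists were chosen with earlier results of these data known. Members past both thresholds in a line, up to 12, and both genes of an isoenzyme pair with 1 such member were given full values; of the further pathway genes up to 5 per direction were to be named, and a few others were named after their values were seen. Some genes that this rule would name are not reported here. The alternatives tried were no filter on low counts, size factors by relative log expression, DESeq2 1.42.0, other groupings of the fit, a replicate block, leaving out each library, no minimum fold change, and limma 3.58.1 on log2(TPM + 1) or log2(TPM + 0.1), for genes with at least 1 TPM in 2 libraries or without that filter. Summing rows of the same name changed nothing, since no member name is repeated. The test was tested on simulated data, where it called 195 of 200 changed genes and 0 unchanged genes at the depth of C4-2B (16866 genes, log2 fold change 1.5), and 191 with 10 unchanged at that of NCI-H660 (16980 genes). These calls also needed a log2 fold change of at least 0.5, and no member changed by as much as 1.5 with MYCL. The simulation therefore does not measure how well the smaller changes reported here are called. Python 3.11.15 with pandas 2.3.3 and matplotlib 3.10.9 made tables and plots.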

Additional observations from a re-analysis of the deposited data

Results flagged for a closer look

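The effect of high against low MYCL differed between the lines for 14 of the 34 genes, by the interaction test of edgeR's quasi-likelihood fit at an adjusted p under 0.05. Of the 34, 8 were lower (23.5%, background 9.63% of 19605 genes) and 6 higher (17.6%, background 10.6%). With a size of at least 0.5, 11.8% were lower and 11.8% higher, close to the backgrounds of 8.33% and 9.59%. The values below are the log2 effect in C4-2B minus that in NCI-H660. It was −1.04 for SMS, −0.95 for CAD, −0.63 for PAICS, −0.54 for NME1, −0.49 for MTHFD1, −0.49 for UMPS, −0.49 for MTAP and −0.42 for ADSS2. For CAD, PAICS, NME1 and MTAP the estimates in the lines had opposite signs, as with CAD at −0.82 in C4-2B and 0.13 in NCI-H660. None of these genes passed in NCI-H660 alone (adjusted p from 0.175 to 0.694, edgeR's quasi-likelihood test). An opposite effect there is therefore not shown. It was 0.45 for AMD1, 0.47 for UCK2, 0.50 for AHCY, 0.53 for NME2, 0.66 for MAT2A and 0.72 for ADK. Here MAT2A had −0.10 in C4-2B and −0.75 in NCI-H660, and ADK 0.18 and −0.54, and neither passed in C4-2B. The adjusted p ran from 2.46e-04 for SMS to 0.0462 for ADSS2. The lines also differ in vector and in the size of the MYCL change, and their part in these differences cannot be told apart.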

How the results depend on the processing

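Of the alternative values of counts, medians and shares, 150 stayed close to the reported ones and 31 moved. No minimum on the fold change gave 21 lower and 1 higher in C4-2B, 11 higher in NCI-H660, 8 lower in the interaction and 4 higher between lines. No filter on low counts gave 7 lower in the interaction. On log2(TPM + 1), log2(TPM + 0.1) and log2(TPM + 1) without a filter, the median was −0.45, −0.46 and −0.45 in C4-2B, −0.24, −0.24 and −0.24 for the interaction, and −0.36, −0.37 and −0.36 between lines, where 7 were higher in each. The same settings gave 1, 0 and 0 higher genes in NCI-H660 and 0, 0 and 0 higher in the interaction, which had 2 to 5 higher when a library was left out (2 without C4-2B control replicate 1, C4-2B MYCL replicate 2 or NCI-H660 shCtrl replicate 1). The split of all called genes was 59.2% higher in C4-2B on counts and 33.8% on log2(TPM + 1), and 52.2% and 71.1% between lines. From counts in place of TPM, the share of CTPS1 changed by −10.2 and 7.71 percentage points and that of NME1 by −11.0 and −4.90 in C4-2B and NCI-H660.

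Single genes changed sign in 51 of 1617 alternatives. Between lines, GART, GMPS, CAD, UMPS, PRPS1 and MTAP became 0.033, 0.35, 0.11, 0.31, 0.21 and 0.16 on log2(TPM + 1), with or without a filter, and 0.033, 0.35, 0.12, 0.31, 0.21 and 0.17 on log2(TPM + 0.1). The other reversals were of genes that did not pass. On log2(TPM + 1), with or without a filter, CTPS2, MTHFD1L, HPRT1 and APRT became −0.037, 0.051, −0.080 and −0.12 in C4-2B, and SHMT1 and APRT 0.0004 and 0.037 in NCI-H660. On log2(TPM + 0.1) these were −0.038, 0.054, −0.082, −0.12, 0.0005 and 0.038. APRT in NCI-H660 was 0.0033 with DESeq2, 0.0027 with relative log expression size factors and 0.0026 with the replicate block. With each library left out in turn, C4-2B values ran from −0.10 to 0.036 for PPAT, −0.27 to 0.19 for MTHFD1L and −0.089 to 0.30 for APRT. NCI-H660 values ran from −0.0038 to 0.13 for GART, −0.25 to 0.20 for DHODH, −0.17 to 0.037 for NME1, −0.024 to 0.016 for SHMT1 and −0.13 to 0.15 for APRT.

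The replicate numbers only share a number: deviations of same-numbered libraries correlated at 0.0328 in C4-2B and 0.0457 in NCI-H660. With the replicate block, 21 fell in C4-2B and 10 rose in NCI-H660, 11 and 4 of them by at least 0.5. With 2 libraries per group, the precision rests on the spread shared across genes.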
